A study of Mus musculus with 16 samples.

Results

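Clec4f, Vsig4, Timd4, Cd5l, Marco, Cd163, Csf1r, Cd68 and Lyz2 are genes of tissue macrophages. With Lyz1, known as a lysozyme of the gut, they were followed here in every library of a study of newborn mouse lung and liver. All 10 were chosen by name as markers of Kupffer cells and of lung macrophages. The rule uses no measured value but was written with earlier results of these data known. The genes make up 10 of the 25054 gene entries in the table. The 16 libraries came from 4 pup groups on the C57BL/6J background: live pups that were WT or heterozygous, and dead pups that were heterozygous or null. The Man1a2 allele was deleted for exon 2, and the parents of every pup, WT pups included, were heterozygous. Parents drank N-acetyl cysteine (NAC), an antioxidant, or water as placebo from before breeding until delivery. Lung and liver were taken at death or at the end of the first day of life. By the study's methods each library was a pool over 3 experiments (2 where the pups were dead heterozygotes), though its supplement gives dead null pools both numbers. Each pup group, treatment and tissue had 1 library. State and genotype therefore cannot be told apart fully, and dead pups were not sampled at the same age as live ones.

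Macrophages engulf particles, dying cells and microbes, and every tissue holds a resident population with its own receptors. Kupffer cells line the liver sinusoids and take up material from the blood through scavenger and complement receptors, and they settle in the liver before birth. Alveolar macrophages clear surfactant from the airspaces and mature from fetal monocytes around birth under the growth factor CSF2 (GM-CSF), while the receptor for CSF1, encoded by Csf1r, maintains most other tissue macrophages. Lysozyme digests bacterial cell walls, and the mouse has a pair of lysozyme genes, Lyz1 and Lyz2.

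The tissue labels were checked first against the surfactant protein gene Sftpc and the albumin gene Alb. Libraries with at least 1000 counts per 1000000 counts (CPM) of Sftpc and less than 1000 of Alb are called lung-content, those with at least 50000 CPM of Alb liver-content, and the rest mixed. By that rule 7 libraries were lung-content, 8 liver-content and 1 mixed, and for 8 of the 16 the content went against the labelled tissue. The lung-content libraries were live WT NAC, live heterozygous NAC and dead heterozygous placebo, labelled lung, and live WT placebo, live heterozygous placebo, dead heterozygous NAC and dead null placebo, labelled liver. The mixed library was dead null placebo, labelled lung. Within dead null pups the lung-content library was placebo and both liver-content libraries were NAC, so treatment cannot be told apart from content there. Totals ran from 7236873 to 11808825 counts in lung-content and from 14115812 to 16107755 in liver-content libraries, and the ribosomal RNA symbol Rn45s took 4.05% to 26.2% and 0.845% to 6.29% of them. The targeted gene Man1a2 had 34.3 and 34.9 CPM in the null liver-content libraries against 29.7 and 34.5 in WT ones, and gene counts do not separate the deleted exon. The dead null NAC library labelled liver was most like live heterozygous placebo labelled lung (Pearson r = 0.992 across genes), and the 2 dead null NAC libraries were among the least alike liver-content pairs (r = 0.885). Whether these pup-group labels are right, as the tissue labels were not for 8 libraries, was not tested. They are used as given, and every value for dead null, dead heterozygous or dead against live libraries depends on them.

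**Figure D1:**
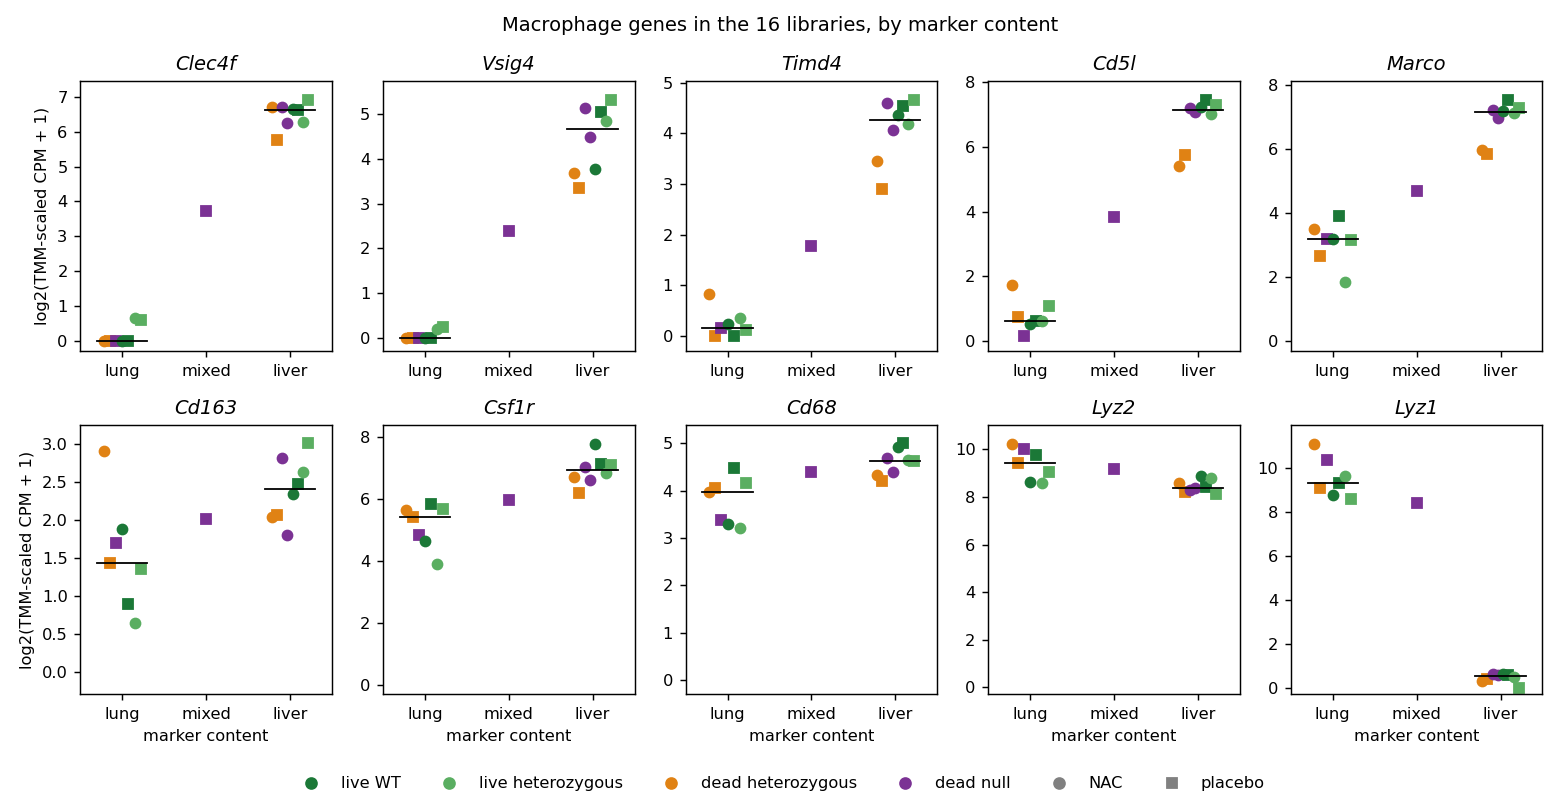
Levels of the 10 genes in the 16 libraries, as log2(CPM + 1) after TMM scaling, by marker content; each point is 1 library, coloured by pup group and shaped by treatment, and lines are medians. Clec4f, Vsig4, Timd4 and Cd5l lie near 0 in the 7 lung-content libraries and Lyz1 near 0 in the 8 liver-content libraries, while the mixed library lies between the classes for these Kupffer cell genes.

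Clec4f, Vsig4, Timd4 and Cd5l were nearly restricted to the liver-content libraries. Clec4f encodes a C-type lectin that in the mouse marks Kupffer cells, and its level after TMM scaling, which evens out differences in library composition, was 53.5, 98.8 and 119 CPM (lowest, median and highest) in the 8 liver-content libraries. In the lung-content libraries it had 0 counts in 5 of 7, and 4 and 6 counts in live heterozygous NAC and live heterozygous placebo. Those 2 libraries also had the highest Alb of the class, 118 and 101 CPM against 7.80 to 63.3 in the others, and the part of liver RNA in these counts was not tested. Summed over the libraries, Clec4f was 744-fold higher in liver-content (8782 against 10 counts, exact 95% interval 405 to 1553, which covers counting error only). In bulk RNA, fewer cells of a type and less RNA per cell cannot be told apart.

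Vsig4, the complement receptor CRIg through which Kupffer cells capture bacteria from blood, ranged from 9.15 to 38.8 CPM in liver-content libraries with a median of 24.7. It had 3 counts in all 7 lung-content libraries together, 1 and 2 of them in the same live heterozygous libraries. The ratio of the summed levels was 647 (interval 221 to 3138). Timd4, a receptor for phosphatidylserine on dying cells, had 6.44, 18.2 and 24.3 CPM in liver-content, and at most 9 counts in a lung-content library, 15 in all. That made its summed level 94.1-fold higher in liver-content (interval 56.9 to 168). Cd5l, a secreted scavenger-receptor-like protein of tissue macrophages, had 41.2, 140 and 172 CPM in liver-content and 0.111, 0.557 and 2.33 CPM in lung-content libraries, a ratio of 146 over the sums (interval 115 to 188). None of the ranges of these genes overlapped between the classes.

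Marco and Cd163, which are scavenger receptors, were found in both classes. Marco, which binds bacteria and particles and is made by macrophages of several tissues, had 56.4, 143 and 184 CPM in liver-content and 2.65, 8.13 and 14.3 CPM in lung-content libraries, with no overlap. Its log2 fold change, lung minus liver, was -3.90 (SE 0.34, adjusted p = 1.7e-07, edgeR's quasi-likelihood test in 1 fit over both classes with Benjamini-Hochberg adjustment). Cd163, which takes up haemoglobin bound to haptoglobin, was low everywhere, with 2.48 to 7.06 CPM in liver-content and 0.557 to 6.46 CPM in lung-content libraries, ranges that overlapped. The lung maximum was dead heterozygous NAC, and the next library had 2.67 CPM. Its log2 fold change was -0.997 (SE 0.33, adjusted p = 0.014).

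Csf1r and Cd68, which mark macrophages in general, differed less. Csf1r had 71.6, 122 and 218 CPM in liver-content libraries and 13.9, 42.0 and 56.1 CPM in lung-content libraries, with no overlap, and a log2 fold change of -1.70 (SE 0.26, adjusted p = 3.7e-05). Its exons overlap those of Hmgxb3 on the other strand, and the use of strand in counting is not given in the sources used here. Cd68, a lysosomal membrane protein, had 17.5, 23.8 and 30.8 CPM in liver-content and 8.22, 14.6 and 21.1 CPM in lung-content libraries. These ranges overlapped, and the log2 fold change was -0.84 (SE 0.19, adjusted p = 0.0012). The calls of Cd163 and Cd68 rest on the scaling: with library size alone they were -0.33 (adjusted p = 0.43) and -0.15 (adjusted p = 0.57), and with Rn45s also left out of the totals Cd68 was 0.0089 and Cd163 -0.17.

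**Figure D2:**
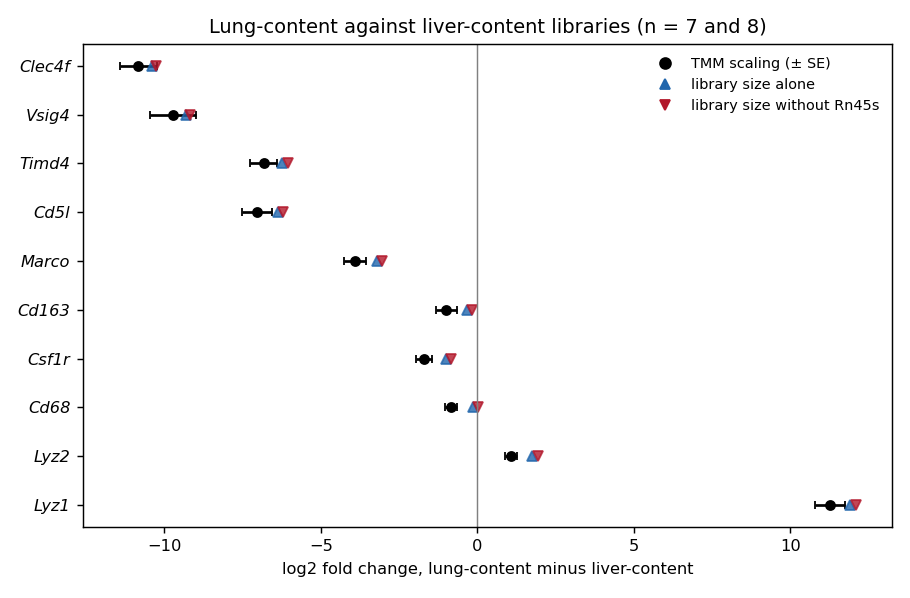
Log2 fold change of each gene, lung-content (7 libraries) minus liver-content (8 libraries), on the x axis; black points are the edgeR fit with TMM scaling and bars its SE, triangles the same fit on library size alone and without Rn45s. The fitted values of Clec4f, Vsig4 and Lyz1 depend on libraries at or near 0 counts and are no measure of size, and Cd163 and Cd68 lie nearer to the zero line under library size, with Cd68 on it without Rn45s.

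In this fit 75.8% of the 15385 genes tested passed an adjusted p under 0.05 between the classes, 36.7% higher in lung-content and 39.1% lower. The 10 genes all passed, 8 lower and 2 higher in lung-content, but Clec4f, Vsig4, Timd4 and Cd5l entered the test through the liver-content libraries and Lyz1 through the lung-content libraries, so they had to differ. Ranges did not overlap for 7 of the 10, and for 49.8% of the 14092 genes that averaged 1 CPM or more. Library size alone raised the median log2 fold change over all genes from -0.06 to 0.60, with 8185 genes higher and 3498 lower in place of 5642 and 6014, and 8 of the 10 genes then passed.

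Lyz1 and Lyz2 went the other way. Lyz2, known as a lysozyme of macrophages, monocytes and neutrophils, had 279, 334 and 463 CPM in liver-content libraries and 385, 680 and 1195 CPM in lung-content libraries. Only the live WT NAC and live heterozygous NAC lung-content libraries, at 394 and 385 CPM, fell within the liver-content range. The log2 fold change was 1.07 (SE 0.19, adjusted p = 0.00017). Lyz1, known as the lysozyme of Paneth cells in the gut, had 382, 631 and 2144 CPM in lung-content libraries and 0 to 7 counts in liver-content libraries, 36 in all, so that its summed level was 2289-fold higher in lung-content (interval 1653 to 3268). The 2 highest Lyz1 levels were in dead heterozygous NAC and dead null placebo, which also had the 2 highest Lyz2 levels, 1195 and 1035 CPM. Across the 7 lung-content libraries Lyz2 was closest to Lamp3, a gene of alveolar type 2 cells (r = 0.98). The part of cells other than macrophages in the lysozyme levels was not tested.

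The genes lie side by side on the minus strand of chromosome 10 (GRCm38), Lyz1 from 117287797 to 117292868 and Lyz2 from 117277331 to 117282321, 5475 bases apart. Their coding sequences, 444 bases each, differ at 22 bases and are 95.05% identical, so the counts of this pair are uncertain where reads match both copies, although the study's methods speak of uniquely mapped reads. Of 345 windows of 100 bases, 19 had no difference, and none of 295 windows of 150 bases. The 150-base stretch from base 276 to base 425 of the coding sequences, shown because reads that fall in it are the hardest to place, holds 2 differences (in capitals).
Lyz1: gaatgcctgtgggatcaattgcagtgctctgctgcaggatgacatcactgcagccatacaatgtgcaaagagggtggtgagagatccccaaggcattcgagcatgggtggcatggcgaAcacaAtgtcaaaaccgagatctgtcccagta
Lyz2: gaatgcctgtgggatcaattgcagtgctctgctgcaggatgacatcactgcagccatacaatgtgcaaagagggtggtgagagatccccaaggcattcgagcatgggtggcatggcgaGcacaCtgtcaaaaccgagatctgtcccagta

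The counts nevertheless split by class. Lyz1 took 41.8% to 67.2% of the Lyz1 and Lyz2 counts in the 7 lung-content libraries (mean 52.5 ± 10.5, SD) and 0% to 0.178% in the 8 liver-content libraries (mean 0.107 ± 0.055), a difference of 52.4 percentage points (two-sided exact permutation test, p = 0.00031, the smallest this design allows). The live heterozygous placebo liver-content library had 0 Lyz1 among 3605 counts (Wilson 95% upper limit 0.106%). Together the liver-content libraries held 33858 counts of Lyz2 beside the 36 of Lyz1. Within lung-content, the share was 52.5%, 64.2% and 67.2% with NAC and 41.8%, 42.1%, 44.0% and 55.9% with placebo, ranges that overlapped (p = 0.11, two-sided exact permutation test). With 3 and 4 libraries this test cannot reach a p under 0.05, so it does not decide whether the share differed with NAC.

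**Figure D3:**
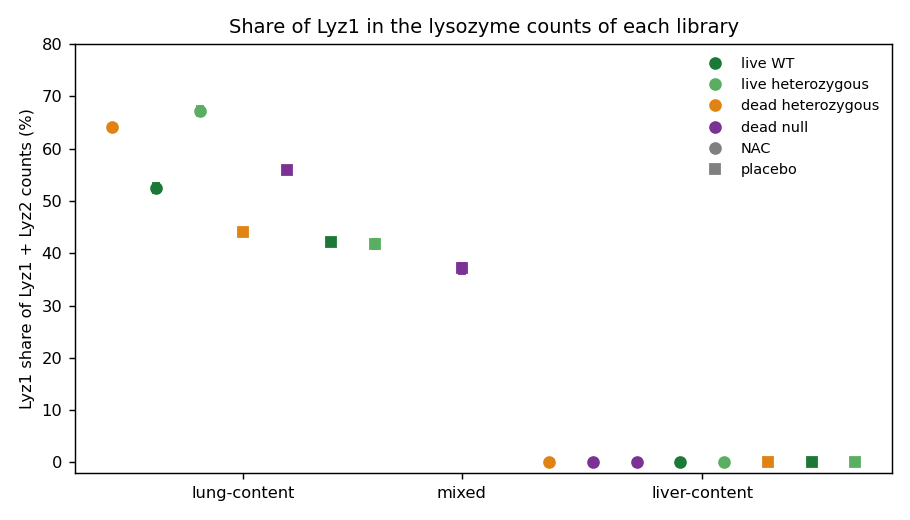
Lyz1 counts as a percentage of Lyz1 plus Lyz2 counts in each of the 16 libraries, grouped by marker content; bars are Wilson 95% intervals and mostly lie within the points. Lung-content libraries lie between 41.8% and 67.2%, the mixed library at 37.1% and liver-content libraries at or below 0.178%.

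Upstream of the RefSeq start sites, 200 of 250 bases were identical in an alignment with 2 bases in gaps. The stretches (GRCm38.p6, minus strand) are chr10:117292869-117293118 for Lyz1 and chr10:117282273-117282522 for Lyz2. GENCODE starts Lyz2 at 117282321, so part of the Lyz2 stretch lies inside the gene as placed above, while that of Lyz1 lies outside it. The pair is shown because its counts differed so widely between the classes, and capitals mark bases that differ. Of the 100 bases nearest the start, 8 differ.
Lyz1: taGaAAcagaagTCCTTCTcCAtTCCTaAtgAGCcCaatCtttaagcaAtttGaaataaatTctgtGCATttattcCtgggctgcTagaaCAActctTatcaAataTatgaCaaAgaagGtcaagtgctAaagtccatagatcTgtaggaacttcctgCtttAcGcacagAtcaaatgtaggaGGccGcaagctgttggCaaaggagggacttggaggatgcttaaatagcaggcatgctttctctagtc
Lyz2: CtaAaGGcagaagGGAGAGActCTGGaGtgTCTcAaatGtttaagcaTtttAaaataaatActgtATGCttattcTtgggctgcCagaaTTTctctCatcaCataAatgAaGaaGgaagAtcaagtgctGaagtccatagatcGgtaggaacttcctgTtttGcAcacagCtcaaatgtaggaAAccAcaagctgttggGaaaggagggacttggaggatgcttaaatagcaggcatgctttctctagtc

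Levels of different genes were compared per length, as CPM per 1000 bases of exon. In liver-content libraries Lyz2 led with a median of 254, followed by Marco (74.5), Cd5l (68.8), Clec4f (39.99), Csf1r (21.1), Cd68 (18.9), Vsig4 (16.6), Timd4 (8.40), Cd163 (0.787) and Lyz1 (0.349). The ranges of Marco (29.3 to 95.7) and Cd5l (20.2 to 84.4) largely overlapped. That of Cd68 (13.9 to 24.5) lay within those of Csf1r (12.4 to 37.8) and Vsig4 (6.16 to 26.2), which overlapped in part. In lung-content libraries Lyz2 (517) and Lyz1 (500) stood far above Cd68 (11.6), Csf1r (7.27), Marco (4.22), Cd163 (0.310) and Cd5l (0.274). The median of Marco per length was above that of Csf1r in liver-content and below it in lung-content libraries, where the ranges (1.37 to 7.41 for Marco and 2.41 to 9.71 for Csf1r) overlapped.

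Other macrophage genes, from lists fixed by name, were read against the same class comparison, where 36.7% of all genes were higher and 39.1% lower in lung-content. Fcna, Spic, Elane, Clec4g and Oit3 reached at most 1.98 CPM in lung-content libraries. Plet1, Il34 and Scara5 reached at most 1.98 CPM in liver-content libraries. These genes were tested largely for their level in the other class, so their passing is no separate evidence and their folds are rough. Of 8 other Kupffer cell genes 7 were lower in lung-content and 1 higher, with a median log2 fold change of -3.86 against -0.06 over all genes. Fcna, a ficolin of the complement lectin pathway, had 69.3 to 107 CPM in liver-content and 0.418 to 1.98 CPM in lung-content (log2 fold change -6.41, SE 0.25, adjusted p = 6.9e-11). Spic, a transcription factor of red pulp macrophages and Kupffer cells, reached at most 0.106 CPM in lung-content against 3.82 to 15.1 CPM in liver-content libraries. The exception was Id3, a transcriptional regulator not limited to macrophages, at 1.10 (SE 0.20, adjusted p = 0.00021). Of 12 other pan-macrophage genes 10 were lower and none higher (median -1.71), led by the complement genes C1qc (-3.30, SE 0.26, adjusted p = 5.4e-08) and C1qb (-3.18, SE 0.22, adjusted p = 1.2e-08). With library size alone 10 of these 12 were still lower and 1 was higher.

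Genes known from alveolar macrophages did not form a lung-content group. Of 9 tested, 3 were higher and 5 lower in lung-content libraries, with a median of -0.71, which became 0.11 on library size without Rn45s. Over all genes 36.7% were higher and 39.1% lower with TMM scaling. Car4 had 20.6 to 60.9 CPM in lung-content and at most 3 counts in any liver-content library, so it entered the test through lung-content and no fold is given. Plet1 was higher at 5.45 (SE 0.26, adjusted p = 3.6e-10). Both are also made outside macrophages, Car4 in lung capillaries and Plet1 in epithelium. Chil3, the chitinase-like protein Ym1, had 7.46 to 45.9 CPM in lung-content and 48.8 to 298 CPM in liver-content libraries (-2.72, SE 0.41, adjusted p = 3.1e-05). Ear1, an eosinophil-associated ribonuclease gene with close copies, was lower as well (-3.52, SE 0.49, adjusted p = 1.5e-05). Neutrophil genes moved with them: all 8 were lower in lung-content (median -4.77), with the granule enzymes Elane and Mpo at -7.56 (SE 0.37, adjusted p = 4.4e-10) and -7.46 (SE 0.39, adjusted p = 7.8e-10). The part of neutrophils and their precursors in the Chil3 and Ear1 levels was not tested.

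Of the ligands and receptors that maintain macrophages, 4 of 8 were higher and 2 lower in lung-content. With TMM scaling 36.7% of all genes were higher and 39.1% lower, and list counts near those shares say nothing particular of a list. Csf2, the ligand, was listed at 0 in every liver-content library and at 0 to 3.39 CPM in lung-content libraries. Il34, the second ligand of the CSF1 receptor, was higher at 3.95 (SE 0.28, adjusted p = 1.8e-08), while the CSF2 receptor subunit Csf2rb was lower at -0.88 (SE 0.16, adjusted p = 0.00025) and Tgfb1, the growth factor, at -0.30 (SE 0.11, adjusted p = 0.025). Neither of these was lower on library size alone, where 5 of the 8 genes were higher and none lower. Among 6 other scavenger receptors 2 were higher and 4 lower: Cd36, a fatty acid receptor also of endothelium, at 2.41 (SE 0.19, adjusted p = 6.2e-08) and Scara5, a ferritin receptor of mesenchymal cells, at 5.85 (SE 0.68, adjusted p = 2.9e-06), against Msr1 at -2.37 (SE 0.26, adjusted p = 1.4e-06) and Mrc1 at -1.61 (SE 0.24, adjusted p = 2.8e-05). Of 6 monocyte genes 4 were lower and none higher, led by Ly6c2 (-3.10, SE 0.17, adjusted p = 1.1e-09) and Plac8 (-2.34, SE 0.12, adjusted p = 9.4e-10). Lysosomal genes, which all cells express, were 2 higher and 5 lower of 10 with TMM scaling and 4 higher and 2 lower with library size alone. The cholesterol transfer protein Npc2 stood at 2.70 (SE 0.15, adjusted p = 1.8e-09) and the protease Ctsl at -2.99 (SE 0.25, adjusted p = 9.3e-08), followed by Npc1 at 0.88 and Ctsb at -1.58. Lists of other cell types bear on the classes themselves: all 6 alveolar type 2 cell genes, Sftpc and Lamp3 first, were higher in lung-content and all 4 hepatocyte genes, Apoa1 and Alb first, lower. Sftpc and Alb set the classes, so their own differences were fixed by the rule and are no check of it. Of 4 liver sinusoidal endothelial genes 3 were lower, led by Clec4g (-6.00) and Oit3 (-5.64), and 1, Lyve1, higher (1.86). All 4 erythroid genes were lower, among them Alas2 (-1.61), but on library size without Rn45s only 1 of the 4 was.

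The mixed library held the Kupffer cell genes at a fraction of their liver-content medians. Clec4f reached 12.5% of that median (122 counts), Timd4 13.3%, Vsig4 17.2%, Marco 17.6% and Cd5l 9.39%, next to 7.52% for Alb. Lyz1 stood at 53.7% and Lyz2 at 84.5% of their lung-content medians, next to 71.0% for Sftpc. Csf1r had 61.3 CPM there, just above the lung-content maximum of 56.1.

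Among the liver-content libraries, both dead heterozygous libraries had the lowest levels of several of these genes. Cd5l had 41.2 CPM in dead heterozygous NAC and 52.4 in dead heterozygous placebo, against 148 and 172 in the live WT pair (NAC and placebo in turn), 129 and 154 in the live heterozygous pair and 133 and 147 in the dead null NAC libraries. Marco showed 61.7 and 56.4 CPM in dead heterozygous libraries, against 146 and 184, 141 and 154, and 125 and 148 in those pairs. Both genes were thus low in dead heterozygous and at similar levels in all other pup groups. Timd4 had 9.98 and 6.44 CPM against 15.7 to 24.3 in the other 6 libraries. Vsig4 had 11.9 and 9.15 CPM against 12.6 to 38.8, where the lowest of the others, live WT NAC at 12.6, stood next to the dead heterozygous values.

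**Figure D4:**
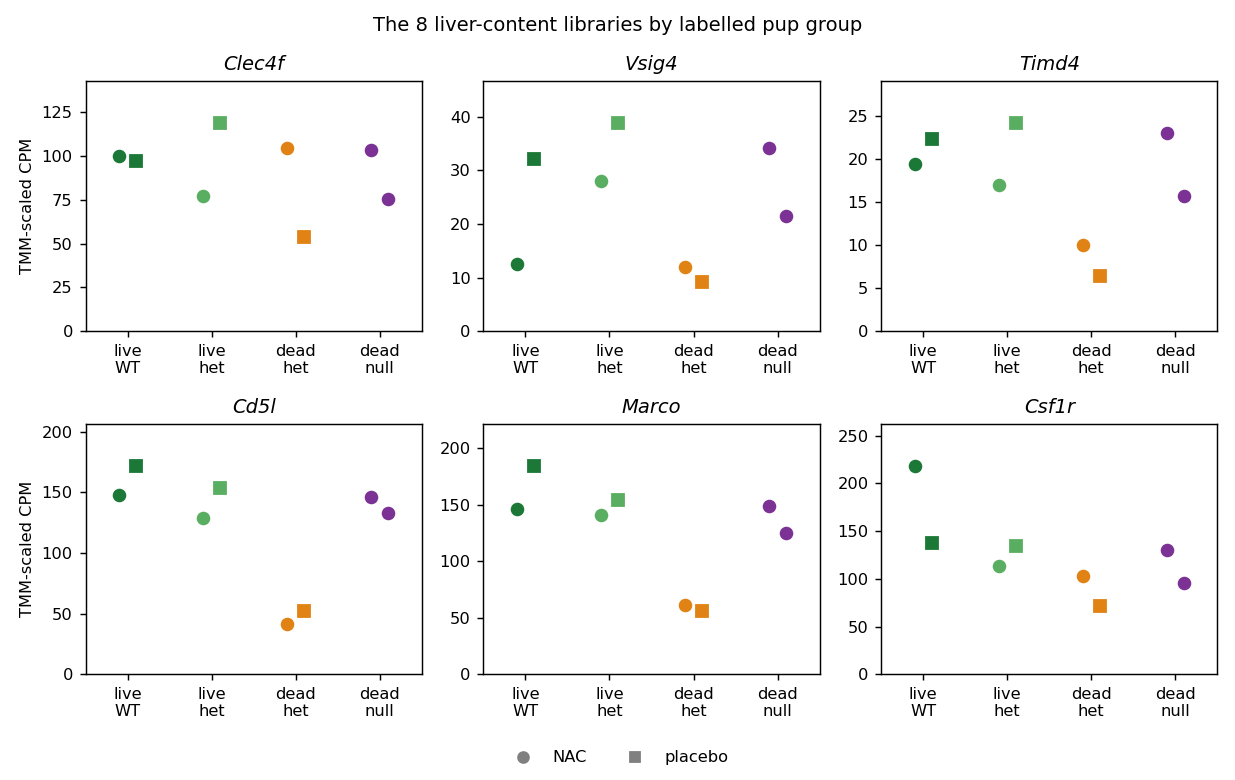
TMM-scaled CPM of 6 genes in the 8 liver-content libraries, 2 for each labelled pup group, with circles for NAC and squares for placebo; y axes start at 0. The dead heterozygous points of Cd5l, Marco and Timd4 lie below all others, those of Clec4f and Csf1r do not both do so.

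Clec4f did not share this pattern: dead heterozygous NAC, at 105 CPM, was among the higher libraries and dead heterozygous placebo, at 53.5, was the lowest. Csf1r had 103 and 71.6 CPM in the dead heterozygous libraries and 95.9 to 218 in the rest. Ranges of dead heterozygous and other libraries did not overlap for 5 of the 10 genes (Vsig4, Cd5l, Marco, Timd4 and Cd68), all lower, and this split was noticed after the values were seen; over 14092 genes it holds for 5.55% in that direction and 10.2% in either. In a fit with pup group within each class, added after the data were examined, dead heterozygous minus live heterozygous was -1.61 for Cd5l (SE 0.35, unadjusted p = 0.0011, adjusted p = 0.35, edgeR), -1.61 for Vsig4 (SE 0.45; -2.33 without dead heterozygous NAC), -1.33 for Timd4 (SE 0.42) and -1.33 for Marco (SE 0.43). None of the 10 passed, and 0.0065% of genes did. Dead null minus dead heterozygous was 1.73 for Cd5l (SE 0.38, unadjusted p = 0.0012, adjusted p = 0.11), where 0.0% of genes passed.

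Other lists were set beside these libraries. The summed level of the other Kupffer cell genes was 360 and 401 CPM in the dead heterozygous libraries and 524 to 911 in the other liver-content libraries, and that of the other pan-macrophage genes 561 and 589 against 624 to 824. The sums of alveolar macrophage genes, 394 and 420 against 160 to 351 CPM, were mostly Chil3 (245 and 298 CPM), and the median log2 fold change of that list, dead heterozygous minus live heterozygous, was -0.69 against -0.82 for the other Kupffer cell genes and -0.02 over all genes. Hepatocyte genes (130062 and 142257 against 85841 to 162733), neutrophil genes (3876 and 4576 against 2644 to 5001) and monocyte genes (176 and 201 against 175 to 223) lay within the range of the others. Erythroid genes had sums of 26616 and 27071 against 5444 to 28796, and their median log2 fold change was 1.22 for dead heterozygous minus live heterozygous and -1.56 for dead null minus dead heterozygous, with none of the 4 past the threshold. Sinusoidal endothelial genes had 182 and 329 against 227 to 344, and lysosomal genes 3682 and 6859 against 3424 to 5191. The part of these in the macrophage levels was not tested. Per count of Csf1r the ranges of dead heterozygous and other libraries overlapped for Cd5l, Marco, Timd4 and Vsig4, and also for Clec4f and Cd68. Cd5l had 0.3998 and 0.732 counts for each Csf1r count in dead heterozygous libraries and 0.679 to 1.39 in the others. Marco had 0.599 and 0.788 against 0.669 to 1.34, Timd4 0.0900 and 0.0969 against 0.0891 to 0.180, and Vsig4 0.116 and 0.128 against 0.0577 to 0.289. By the study's methods the pools of dead heterozygous pups came from 2 experiments and those of the others from 3. Its supplement also lists dead null pups with 2. The part of the number of experiments in the levels was not tested.

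Cd5l, Marco and Timd4 followed each other across the 8 liver-content libraries. The correlation of log2(CPM + 1) was 0.98 for Cd5l with Marco (Spearman's rho 0.93) and stayed at 0.91 without the 2 libraries farthest from the median of Cd5l. It was 0.91 for Cd5l with Timd4 (rho 0.83, 0.77 without 2 libraries). Clec4f with Cd5l had 0.39 (rho 0.29), and this fell to -0.07 without 2 libraries. In lung-content libraries Csf1r and Cd68 went together (r = 0.92, rho 0.96, 0.94 without 2 libraries), and Csf1r with Lyz1 had r = 0.00. Points share libraries and scaling factors, and the values are descriptions.

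Among all genes that averaged 10 CPM or more in the class, those closest to Cd5l were Axl, a receptor tyrosine kinase that takes part in the uptake of dying cells (r = 0.99), Marco itself and Il18bp, the interleukin 18 binding protein (r = 0.98), out of 9340 compared over 8 libraries. Closest to Clec4f were Rftn1 (r = 0.96), Slc45a3 (0.93) and Ckb (0.93), a different set. Over the 7 lung-content libraries and 8890 genes, Csf1r was closest to Apln (r = 0.996), Ctss, a protease of macrophages (0.98), and Islr (0.98), and Lyz2 to Lamp3, a lysosomal membrane protein of alveolar type 2 cells (0.98), and Oxct1 (0.97).

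Of the genes that were low in the dead heterozygous libraries, the 250 bases upstream of Vsig4, Cd5l and Marco are shown because they hold a motif searched for here (RefSeq, GRCm38.p6, written 5′ to 3′ on the strand of the gene). Capitals mark GAGGAA or its complement TTCCTC, searched on both strands as the core of sites bound by PU.1, a transcription factor that macrophages need. The motif occurred upstream of 4 of the 9 genes with an entry, these and Cd68, not upstream of Timd4, which was low with them, and in 23.3% of 32851 promoters of that length, and a match is no evidence of binding. Vsig4 is at chrX:96293439-96293688 on the minus strand, Cd5l at chr3:87357631-87357880 on the plus strand and Marco at chr1:120505025-120505274 on the minus strand.
Vsig4: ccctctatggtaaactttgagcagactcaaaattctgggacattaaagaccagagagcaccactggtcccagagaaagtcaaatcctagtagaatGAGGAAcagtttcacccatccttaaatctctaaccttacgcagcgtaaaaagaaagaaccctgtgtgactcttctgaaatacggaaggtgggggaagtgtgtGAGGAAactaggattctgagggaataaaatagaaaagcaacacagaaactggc
Cd5l: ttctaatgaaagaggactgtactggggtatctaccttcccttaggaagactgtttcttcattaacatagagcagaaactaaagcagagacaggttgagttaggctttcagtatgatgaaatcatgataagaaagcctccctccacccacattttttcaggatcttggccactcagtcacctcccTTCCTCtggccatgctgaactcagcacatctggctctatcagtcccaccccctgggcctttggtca
Marco: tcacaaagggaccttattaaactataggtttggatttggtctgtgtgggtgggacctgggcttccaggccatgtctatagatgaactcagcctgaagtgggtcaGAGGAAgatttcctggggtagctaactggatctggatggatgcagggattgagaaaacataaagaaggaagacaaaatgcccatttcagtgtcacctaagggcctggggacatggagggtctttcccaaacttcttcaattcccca

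Dead and live pups were compared next within each class, at the average of the treatments. In the liver-content libraries (4 dead, 4 live) none of the 10 genes passed, where 0.104% of all genes did (16 genes; 265 without dead null NAC labelled liver, and 1 without live WT placebo labelled lung or dead heterozygous placebo labelled liver). Cd5l had a log2 fold change, dead minus live, of -0.81 (SE 0.47, adjusted p = 0.63), Marco -0.78 (SE 0.43, adjusted p = 0.61), Timd4 -0.72 (SE 0.39, adjusted p = 0.60) and Csf1r -0.72 (SE 0.35, adjusted p = 0.58). Cd5l depended on the dead null libraries: without them its value was -1.70 (SE 0.28, adjusted p = 0.025), and it then was the only 1 of the 10 to pass. More of all genes passed without them than the 16 above, and the count is given in the last section. That setting leaves dead heterozygous libraries as the only dead ones, as above.

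In the lung-content libraries (3 dead, 4 live) no gene of 15385 passed by edgeR, 313 had an unadjusted p under 0.05, and DESeq2 called 6. Lyz1 had 2144, 1309 and 534 CPM in the dead libraries and 382, 435, 631 and 790 in the live ones, ranges that overlapped, with a log2 fold change of 1.25 (SE 0.39, unadjusted p = 0.0069, adjusted p = 1.0). Lyz2 had 0.85 (SE 0.27, unadjusted p = 0.0083, adjusted p = 1.0) and Cd163 1.26 (SE 0.49, adjusted p = 1.0). The difference of the dead against live effects between the classes passed for none of the 10 genes and 0.0065% of all genes.

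NAC was the treatment the study set out to examine. In the lung-content libraries (3 NAC, 4 placebo) 1.12% of genes passed and none of the 10 did. That share was 172 genes, and leaving out a library in turn gave from 0 (live heterozygous NAC labelled lung) to 901 (dead null NAC labelled liver). Csf1r had 13.9, 23.9 and 49.3 CPM with NAC and 27.8, 42.0, 50.6 and 56.1 with placebo (log2 fold change -0.63, SE 0.37, adjusted p = 0.32). With a library left out in turn this ran from -0.26 to -1.48, the latter without dead heterozygous NAC labelled liver. Cd68 ran parallel, with 8.22, 8.79 and 14.6 against 9.35, 15.7, 16.7 and 21.1 CPM (-0.57, SE 0.28, adjusted p = 0.24). Lyz1 had 0.67 (SE 0.39, adjusted p = 0.32) and Cd163 1.07 (SE 0.49, adjusted p = 0.21). Timd4 had 2, 2 and 9 counts with NAC and 0, 0, 1 and 1 with placebo, at or under 3 counts in 6 of the 7 libraries, so no fold is given. Timd4 passed with DESeq2 (adjusted p = 0.031), which called more of all genes there than edgeR. Without the dead null libraries both Timd4 (adjusted p = 0.024) and Cd68 passed (-0.79, SE 0.23, adjusted p = 0.035). In that setting 3172 genes passed in place of 172, so these 2 calls say nothing particular of the 10 genes. Of the other macrophage lists, the fatty acid binding protein gene Fabp4 was higher with NAC (1.26, SE 0.28, adjusted p = 0.0496) and Siglecf, a sialic acid receptor of alveolar macrophages and eosinophils, lower (-2.35, SE 0.46, adjusted p = 0.047), and of the neutrophil genes Mpo was higher (2.45, SE 0.51, adjusted p = 0.0496). Siglecf had only 0.139 to 3.02 CPM and Mpo 0.424 to 5.01 CPM in the lung-content libraries, so their folds are rough. None of these calls held without live heterozygous NAC labelled lung, where no gene passed.

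**Figure D5:**
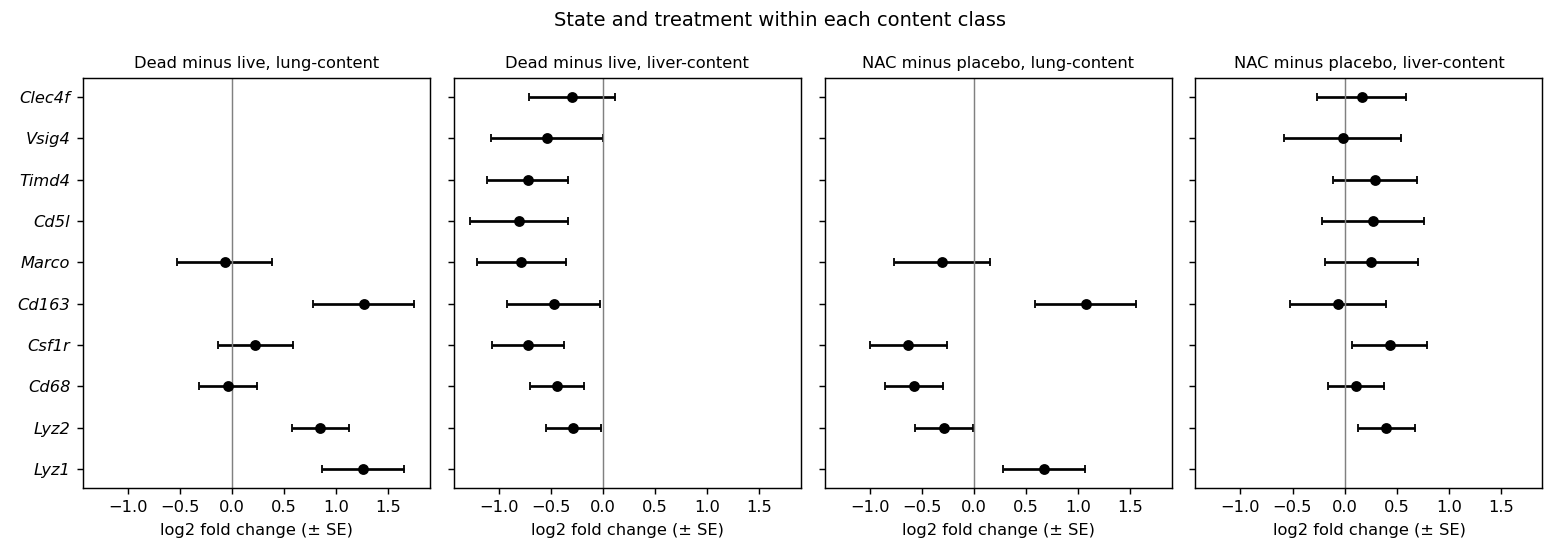
Log2 fold changes with SE for dead minus live and NAC minus placebo within the lung-content (7 libraries) and liver-content (8 libraries) classes, from edgeR; genes near 0 counts in a class are left out. No point passed an adjusted p under 0.05, and the 9 liver-content values for dead minus live all lie below 0.

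In the liver-content libraries (5 NAC, 3 placebo) 0.0% of genes passed by edgeR, 570 had an unadjusted p under 0.05, and DESeq2 called 7. Lyz2 had 313, 329, 384, 437 and 463 CPM with NAC and 279, 298 and 339 with placebo (log2 fold change 0.40, SE 0.27, adjusted p = 1.0). Csf1r had 0.43 (SE 0.36, adjusted p = 1.0), with its highest value, 218 CPM, in live WT NAC against 137 in live WT placebo. Clec4f had 0.16 (SE 0.43, adjusted p = 1.0). The difference of the NAC effects between the classes passed for none of the 10 genes and 0.0% of all genes.

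The pairs as labelled gave another picture. Each set the NAC library against the placebo library of the same pup group and labelled tissue, with edgeR's exact test at the study's coefficient of variation of 0.2, which compares 2 libraries and has no replicate. Of 80 gene results over the 8 pairs, 63 passed an adjusted p under 0.05 with an absolute log2 fold change of at least 1, from 6 to 10 in a pair, where 43.4% to 58.2% of all genes passed. In every pair the libraries differed in content. With NAC as lung-content and placebo as liver-content, 7 genes were lower and 1 higher in live WT labelled lung, where 53.9% of genes passed. Live heterozygous labelled lung had 8 lower and 1 higher (58.2% of genes), and dead heterozygous labelled liver 5 lower and 2 higher (49.5%). In the other 5 pairs NAC was the liver-content library, and most of the 10 genes that passed were higher with it. There were 7 higher and 1 lower in both live WT and live heterozygous labelled liver (47.8% and 48.1% of genes), 6 and 1 in dead heterozygous labelled lung (48.8%), 8 and 2 in dead null labelled liver (53.4%), and 5 and 1 in dead null labelled lung (43.4%), whose placebo library is the mixed one.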

How the data were processed

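RNA was pooled by pup group, treatment and tissue, and libraries were made with a stranded polyA kit. The authors aligned reads to the mouse genome (mm10, GRCm38) and deposited an estimated count per gene symbol, not normalized, of which 6.50% to 8.24% in a library were not whole. The study's methods describe abundances of uniquely mapped reads from the OSA aligner, so reads that match Lyz1 and Lyz2 alike may be missing from both. The use of strand in counting is not given in the sources used here. The submitters' processing notes name R 4.0.3 and edgeR 3.30.3. The design assumed counts, so these estimated counts were rounded first, and the 329 symbols on more than 1 entry were kept apart.

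Libraries were classed by Sftpc and Alb. A fit with edgeR 4.0.16 in R 4.3.3 (quasi-likelihood, TMM factors, filterByExpr) covered the 15 lung-content and liver-content libraries, with state and treatment within content. Adjusted p-values (Benjamini-Hochberg, threshold 0.05) are over all genes tested. The labels give no replicate numbers, and each pup group, treatment and tissue had 1 library. P-values of this fit therefore measure the spread between pools, which includes genotype differences within a state. Labelled pairs were tested with edgeR's exact test at a coefficient of variation set to 0.2, so those p-values rest on no measured spread. Shares of Lyz1 were compared by exact permutation (scipy 1.17.1), and intervals cover counting error only. Scripts were tested on simulated data. Lengths and positions are from GENCODE on GRCm38, upstream sequences from RefSeq on GRCm38.p6.

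The genes and the lists beside them were chosen with earlier results of these data known. All 10 genes are named in every comparison, and of each list the 2 genes with the largest change in each direction among those that passed, plus the 3 genes most alike in level. Some genes that this rule names are not reported here. Alternatives were relative log expression factors, library size, no filter, DESeq2 1.42.0, the mixed library as lung-content, pup group as a block, the labelled tissues, coefficients of variation and leaving out each library. Added after seeing the data were library size without Rn45s and fits without dead null libraries. A further fit left out 2 libraries together, live heterozygous NAC labelled lung and dead null NAC labelled liver. Pup groups within content were also added, and were run too with both other scalings and with each of the 4 heterozygous liver-content libraries left out. Quantitative PCR, survival and histology were not analysed here.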

Additional observations from a re-analysis of the deposited data

Results flagged for a closer look

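Of 65 sets of 4 to 8 libraries in which the level of a gene was screened for a value far from the rest, 8 had one. Chance gives about 1 in 20 for separate sets. These sets share libraries and some hold counts near 0, so no excess can be read from the number. Among the liver-content NAC libraries, dead heterozygous NAC lay far below the others for Cd5l (41.2 CPM, the next 129) and Marco (61.7 CPM, the next 125). In live WT NAC, Csf1r stood at 218 CPM, above the next library both among all liver-content libraries (137 CPM) and among those with NAC (130 CPM). In the lung-content class, dead heterozygous NAC was far above the rest for Cd163 (6.46 CPM, the next 2.67) and for Timd4 (0.775 CPM, 9 counts, the next 0.279). Live heterozygous placebo was far above the other live lung-content libraries for Cd5l (1.13 CPM, the next 0.557) and above the other placebo libraries, all at 0, for Clec4f (0.520 CPM, 6 counts). No explanation was tested for these values.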

How the results depend on the processing

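The 10 genes all passed between the classes under each alternative except library size alone and library size without Rn45s, where 8 passed, and the tissues as labelled, where 0 of them and 0 of all genes passed. With the tissues as labelled the log2 values turned to 0.92 for Clec4f, 1.15 for Vsig4, 0.83 for Cd5l, 0.47 for Marco, 1.01 for Timd4, -0.54 for Lyz1 and -0.62 for Lyz2. Cd68 turned to 0.0089 on library size without Rn45s. Of 555 values of single genes under alternatives, 539 kept direction and side of the threshold, 8 turned, 6 lost and 2 gained the call, which are Cd5l and Cd68 without the dead null libraries. Timd4 with NAC in lung-content, given by its counts alone, is not among these values.

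DESeq2 called 6 genes for dead against live in lung-content, 66 in liver-content and 7 for the difference, and for NAC 1329 in lung-content, 7 in liver-content and 219 for the difference. Of the 10 genes it called 1, Timd4, with NAC in lung-content. The mixed library as lung-content gave 2 genes for dead against live in liver-content, 0 for its difference and 443 for NAC in lung-content. Library size alone gave 7 for NAC in lung-content and 1 for its difference, and without Rn45s 89 in lung-content. Pup group as a block gave 616 genes for NAC in lung-content and 24 for the difference, and called none of the 10. Without the dead null libraries, 68 genes passed for dead against live in liver-content (1 of the 10), 3172 for NAC in lung-content (2 of the 10), 3 in liver-content and 823 for the difference. Live heterozygous NAC labelled lung and dead null NAC labelled liver were also left out together. That gave 216 genes for dead against live in liver-content, 2 for its difference and 1 for NAC in lung-content.

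With each library left out in turn, genes passing for dead against live in liver-content ran from 1 to 265 and for its difference from 0 to 2. For NAC they ran from 0 to 901 in lung-content, from 0 to 1 in liver-content and from 0 to 68 for the difference, and 0 to 1 of the 10 genes passed in lung-content (Timd4, without the dead null NAC library labelled liver). The cause was not tested.

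The labels give no replicate numbers to pair libraries by, and the block by pup group above is the paired fit that was run. With 7 and 8 libraries and pools in place of single pups, small differences between states or treatments could not be seen, and genes at or under 3 counts in a class have no measured fold there.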
